A study of Mus musculus with 8 samples.

Results

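Interferon response genes were examined in distal convoluted tubules (DCT), the short nephron segment that follows the thick ascending limb and reabsorbs sodium chloride through the thiazide-sensitive cotransporter. A list of 46 gene symbols defined the set: receptor subunits, transcription factors, nucleic acid sensors and interferon-stimulated effectors. Each gene was read by its brightest probe set (the probes summarised to 1 value) among those that the platform annotation pairs with exactly 1 symbol, and 42 of the 46 had such a probe set, of 18782 genes measured in all. Ifi44, Parp9, Dtx3l and Igtp had none and carry no value here. All 42 gene identifiers matched the mouse RefSeq gene table.

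The samples were 4 TBC1D4-deficient and 4 wild-type samples, each read on its own 1-colour array. Both genotypes were C57/Bl6 males aged 8 weeks, and both carried a transgene that expresses EGFP from the parvalbumin promoter, which labels DCT, so the green tubules could be collected on a large-particle sorter (COPAS). TBC1D4 is a Rab GTPase-activating protein of vesicle traffic, and the study asked which genes compensate for its loss in the DCT. The labels used here do not describe the TBC1D4 allele. They also do not tie each sample to a separate animal, so every p-value below reflects sample-to-sample spread that may be technical.

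Interferons are secreted cytokines: type I and lambda interferons are made by cells that sense microbial nucleic acid, and interferon gamma mainly by T cells and natural killer cells. Type I interferons bind IFNAR1 and IFNAR2, interferon gamma binds IFNGR1 and IFNGR2, and lambda interferons bind IFNLR1 together with IL10RB. Receptor-bound Janus kinases then activate STAT proteins. STAT2 and IRF9 act at the interferon-stimulated response element (ISRE) of promoters, and interferon gamma acts mainly through the gamma-activated site (GAS). Many interferon-stimulated genes are weakly transcribed until this signal arrives, and lambda interferons act mainly on epithelia.

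Promoter sequences of 7 members are shown because they carry matches to these elements and belong both to genes read above background and to genes that were not. Each is the 160 bases before the RefSeq transcription start, build GRCm38.p6, 5′ to 3′, with matches to either motif in capitals. The ISRE core was searched as GAAA, any bases at NN, then GAAA, on both strands, and GAS as TTC, any bases at NNN, then GAA, which reads alike on both strands. Overlapping matches were counted. The first 5 genes lay above the background limit set out in a later paragraph: Irf1 at chr11:53769854-53770013 (+ strand), Rsad2 at chr12:26456453-26456612 (- strand), Ifit3 at chr19:34583369-34583528 (+ strand), Irgm1 at chr11:48871421-48871580 (- strand) and B2m at chr2:122147527-122147686 (+ strand). The other two, Oas1a at chr5:120907526-120907685 (- strand) and Gbp2 at chr3:142620503-142620662 (+ strand), did not. The capitals mark a GAS match in Irf1 and in the first capitalised run of Oas1a, and ISRE matches elsewhere.
Irf1: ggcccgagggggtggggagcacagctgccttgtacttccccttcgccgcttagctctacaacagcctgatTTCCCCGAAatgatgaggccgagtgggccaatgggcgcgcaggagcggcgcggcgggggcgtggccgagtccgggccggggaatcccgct
Rsad2: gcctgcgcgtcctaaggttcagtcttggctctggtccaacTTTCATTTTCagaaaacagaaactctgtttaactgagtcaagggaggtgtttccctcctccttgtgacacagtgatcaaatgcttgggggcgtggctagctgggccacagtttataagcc
Ifit3: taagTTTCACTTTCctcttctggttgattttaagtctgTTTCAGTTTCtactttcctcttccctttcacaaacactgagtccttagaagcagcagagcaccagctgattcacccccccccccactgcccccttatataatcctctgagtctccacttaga
Irgm1: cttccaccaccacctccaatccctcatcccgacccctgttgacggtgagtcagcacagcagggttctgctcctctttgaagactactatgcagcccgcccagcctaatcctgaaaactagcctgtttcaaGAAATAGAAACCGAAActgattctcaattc
B2m: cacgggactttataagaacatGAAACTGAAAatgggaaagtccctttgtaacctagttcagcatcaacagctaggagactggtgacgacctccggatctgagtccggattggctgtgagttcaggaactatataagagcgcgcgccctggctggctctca
Oas1a: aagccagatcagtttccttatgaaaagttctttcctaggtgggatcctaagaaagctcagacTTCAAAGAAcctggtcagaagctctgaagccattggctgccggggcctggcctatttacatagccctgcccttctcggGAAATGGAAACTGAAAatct
Gbp2: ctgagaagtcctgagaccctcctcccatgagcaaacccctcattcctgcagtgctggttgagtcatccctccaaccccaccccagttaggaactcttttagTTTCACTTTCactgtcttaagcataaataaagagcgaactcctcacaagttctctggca

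Of the 46 members, 38 had a promoter window of 300 bases (250 before to 50 after the start) in the RefSeq table. Usp18, Zbp1, Mx1, Mx2, Oas2, Parp14, Tap2 and Parp9 had none. An ISRE match stood in 18 of the 38 members (47.4%), against 3.99% of the 27025 genes with a window of that length. A GAS match stood in 11 of the 38 (28.9%), against 9.55% of those genes. Among members with a window, ISRE matches were found in 13 of 28 above the background limit and in 4 of 7 that were not, so genes with the element stood on both sides of the limit. None of the 5 receptor genes held an ISRE match, while Ifnar1 and Ifnar2 each held a GAS match. All 4 members of the GTPase group (Gbp2, Gbp3, Igtp and Irgm1) held an ISRE match. Mx1 and Mx2, which also encode GTPases, are not in that group and had no window. A match is a stretch of letters and not a measured binding site.

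The labels and the tissue were checked first. Tbc1d4 read 2.48, 2.72, 2.50 and 2.21 on the log2 intensity scale in the TBC1D4-deficient arrays, against 6.69, 6.79, 6.58 and 6.94 in the wild-type arrays, so every array matched its label (limma adjusted p = 6.347e-08). The TBC1D4-deficient mean of 2.48 is not above the background limit set out in the next paragraph, so Tbc1d4 was at least 17.9-fold lower, taking each TBC1D4-deficient array at its own limit where that was higher. All 9 measured DCT markers were above background, with mean levels of 11.49 for Slc12a3, the thiazide-sensitive cotransporter, 11.09 for Calb1, a calcium-binding protein, and 9.72 for Pvalb (parvalbumin). All 13 endothelial and all 15 proximal tubule markers were also above the limit, and so were 6 of 15 macrophage and dendritic cell markers and 2 of 10 lymphocyte markers. The pan-leukocyte marker Ptprc, with a mean level of 2.32, was not. All 6 thick ascending limb, all 6 connecting tubule and principal cell and all 7 intercalated cell markers measured were above the limit. Of proximal tubule markers, Slc34a1 averaged 9.60 and Kap 9.36. Of thick ascending limb markers, Umod averaged 11.12 and Slc12a1 7.49. The part of these segments in the levels below was not tested. In bulk tubules, fewer cells of a type and less RNA per cell cannot be told apart.

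Background was set by olfactory receptor genes, a large family expressed mainly in the olfactory epithelium. Their 1003 probe sets had a median level of 1.59 and a 95th percentile of 2.49 on the log2 scale, and a member was called above background when its mean over the 8 arrays exceeded that percentile. The limit was passed by 33 of the 42 members (78.6%) and by 65.6% of all genes. Among those that passed it, the median level was 4.17 for members and 5.31 for all genes. In single arrays the count was 31 to 34 members, and 28 members exceeded the limit of every array. The nearest members were Oas2 at 2.52 and Zbp1 at 2.55, just above, and Gbp2 at 2.45 and Oas3 at 2.44, just below. Since probes differ in brightness, levels of different genes are given side by side and not ranked. Close relatives within the Ifit, Oas and Gbp families may share probe signal, which was not tested.

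**Figure D1:**
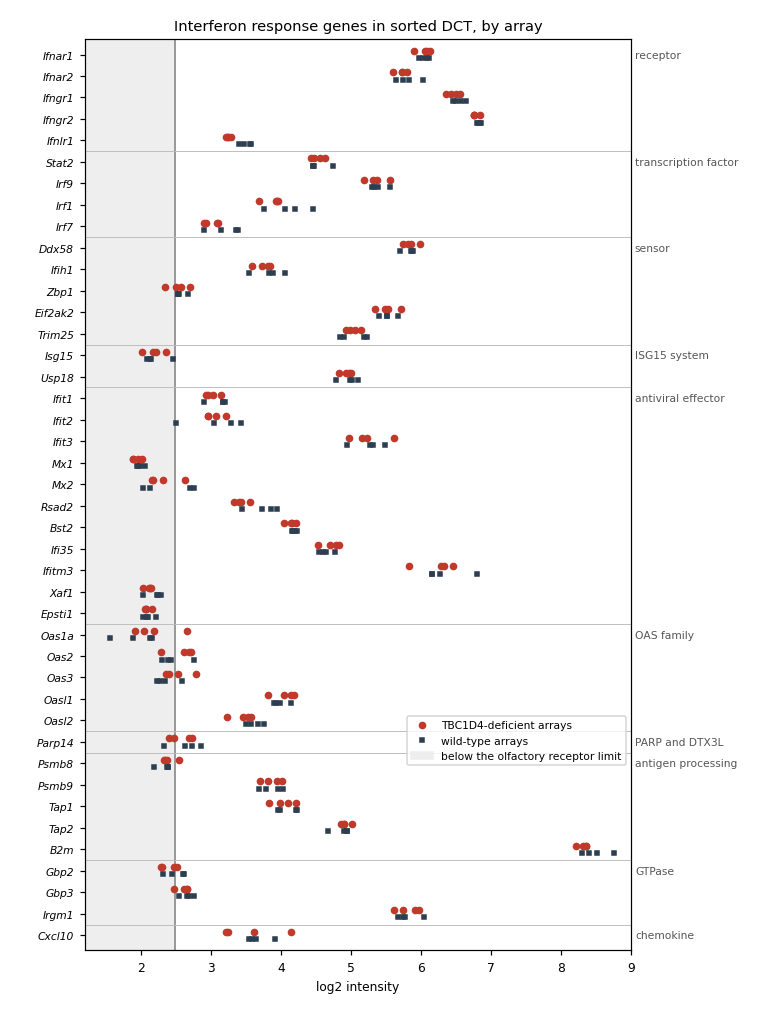
Log2 intensity of the 42 measured interferon response genes on each array, grouped by role, with TBC1D4-deficient arrays (red circles) above wild-type arrays (dark squares). The grey band ends at the olfactory receptor limit of 2.49; receptors lie to the right of it, while Mx1, Xaf1, Epsti1 and Isg15 lie within it on every array.

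**Figure D2:**
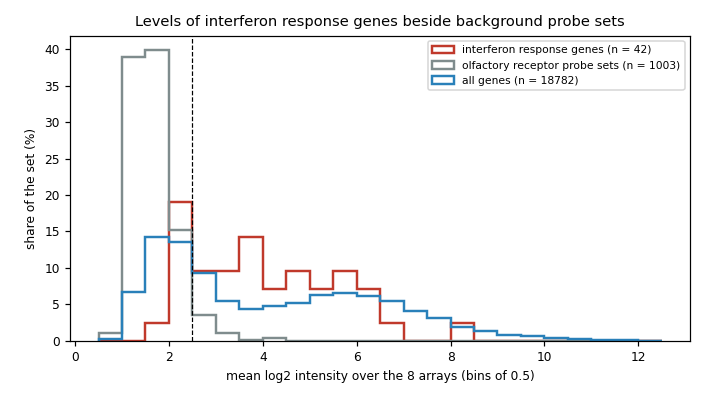
Share of each gene set (vertical axis, percent) by mean log2 intensity over the 8 arrays (horizontal axis, bins of 0.5) for the 42 interferon response genes, 1003 olfactory receptor probe sets and all 18782 genes. The dashed line is the limit of 2.49, which 33 of the 42 members exceed.

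Receptor chains of all 3 interferon types had means above the limit in the sorted tubules. Ifngr2, a signalling chain of the interferon gamma receptor, averaged 6.77 ± 0.04 in TBC1D4-deficient and 6.82 ± 0.03 in wild-type arrays (SD, n = 4 each). Its partner Ifngr1, the ligand-binding chain, averaged 6.46 ± 0.09 in TBC1D4-deficient and 6.54 ± 0.08 in wild-type arrays. Of the type I receptor chains, Ifnar1 averaged 6.04 ± 0.10 in TBC1D4-deficient and 6.05 ± 0.06 in wild-type arrays, and Ifnar2 5.71 ± 0.08 in TBC1D4-deficient and 5.81 ± 0.17 in wild-type arrays. No olfactory receptor probe set was as bright as any of these 4 genes. Ifnlr1, the specific chain of the lambda receptor, averaged 3.25 ± 0.03 in TBC1D4-deficient and 3.50 ± 0.08 in wild-type arrays, with 4 olfactory receptor probe sets above its mean. The shared lambda receptor chain Il10rb, picked after its values were seen, averaged 2.80 over the 8 arrays. It exceeded the array's own limit in only 6 of them.

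All 4 transcription factors and all 5 sensors had means above the limit. Irf9 and Stat2, the DNA-binding partner and the transactivating STAT of the type I complex, had mean levels of 5.38 and 4.52 over the 8 arrays. Irf1, an activator downstream of interferon gamma, averaged 3.88 ± 0.13 in TBC1D4-deficient and 4.12 ± 0.29 in wild-type arrays. Irf7, which amplifies type I interferon production, averaged 3.10 over the 8 arrays. Among sensors, Ddx58 (RIG-I, a sensor of viral RNA) averaged 5.84 and Eif2ak2 (PKR, a kinase activated by double-stranded RNA) 5.52. Trim25, a ubiquitin ligase that acts with RIG-I, averaged 5.03 and Ifih1 (MDA5, a sensor of long double-stranded RNA) 3.79. Zbp1, a sensor of Z-form nucleic acid that can trigger cell death, averaged 2.55 and exceeded the array's own limit in only 4 of the 8 arrays.

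The interferon-stimulated effectors fell on both sides of the limit. The antiviral effectors above the limit were Ifitm3, which blocks virus entry by membrane fusion (mean level 6.29), Ifit3 (5.25), Ifi35 (4.67), Bst2 (tetherin, which holds budding virions at the cell surface, 4.17), Rsad2 (viperin, 3.59), Ifit1 (3.06) and Ifit2 (3.06). Mx1 and Mx2, which encode dynamin-like GTPases, were not above it, at 1.96 and 2.36. Neither were Xaf1, a gene linked to apoptosis, at 2.15 and Epsti1 at 2.10. In the oligoadenylate synthetase family, whose catalytic members make the activator of RNase L, Oasl1 (4.02), Oasl2 (3.54) and Oas2 (2.52) passed the limit, and Oas3 (2.44) and Oas1a (2.07) did not.

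In the ISG15 system, Usp18, the protease that removes ISG15 from proteins and restrains receptor signalling, averaged 4.95. The probe set annotated to Isg15, the ubiquitin-like modifier itself, averaged 2.20 and was under the array's own limit in all 8 arrays. Its identifier lies between those of Abcc10 and Slc22a7, and 19 of its 20 nearest named probe sets are annotated to genes of chromosome 17, whereas Isg15 is on chromosome 4. For the other 41 members the neighbouring probe sets matched the gene's chromosome. Which locus the Isg15 probe set reads is therefore unsettled, and its values are those of the probe set alone.

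Antigen processing and GTPase genes also split at the limit. B2m, the invariant light chain of MHC class I, averaged 8.31 ± 0.07 in TBC1D4-deficient and 8.49 ± 0.19 in wild-type arrays (SD, n = 4 each). The peptide transporter subunits Tap2 and Tap1 had mean levels of 4.89 and 4.07 over the 8 arrays, and the immunoproteasome subunit Psmb9 of 3.87, while Psmb8, another immunoproteasome subunit, stood at 2.37, below the limit. Irgm1, an immunity-related GTPase that acts in autophagy, averaged 5.81, Gbp3 averaged 2.63 and Gbp2 2.45; guanylate-binding proteins act against intracellular pathogens. Parp14, a mono-ADP-ribosyltransferase, stood at 2.61. Cxcl10, a chemokine that attracts T cells, averaged 3.61.

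The genotypes were then compared for each member. No interferon response gene passed the threshold: 0 of 42 had a limma adjusted p below 0.05 over 23039 probe sets, and the smallest adjusted p among them was 0.9999. Tbc1d4 was the only probe set called, 0.00434% of those tested. At an unadjusted p below 0.05 there were 2 members, Ifnlr1 and Rsad2, both lower in the TBC1D4-deficient arrays, and 0 higher. That is 4.76% of the members, beside 2.9% of all probe sets in either direction, 1.48% in the lower and 1.42% in the higher direction. The 95% interval lay inside 1.5-fold for 41 of 42 members, Oas1a being the exception, beside 97.4% of all probe sets.

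The differences were small and mostly below 0. Of the 42 members, 33 lay below 0 and 9 above, with a median log2 difference of -0.045, against 50.4% below 0 and a median of -0.000742 over all 18782 genes. That split depended on the scale. With each array centred on its median, the median of all genes moved to 0.0197. On that scale 25 of 42 members lay below 0 and their median was -0.024. Centring shifted the difference of every gene by the same amount, so the members' place relative to all genes did not change. The share of all genes below 0 on that scale was not computed. The split of the members also differed between the number sets in the sample descriptions. The number that opens each description has no stated meaning; the runs 5 to 8 and 9 to 12 each take in 2 TBC1D4-deficient and 2 wild-type arrays. Within 5 to 8, 23 of 42 members lay below 0 with a median of -0.016, and within 9 to 12, 29 lay below 0 with a median of -0.081. A second number in the descriptions, also without a stated meaning, is split by range unevenly between the genotypes. With that range as a covariate, 26 of 42 lay below 0 and the median was -0.025. Leaving out TBC1D4-deficient replicate 2 gave a median of -0.027, and leaving out wild-type replicate 4 gave -0.024. No test of the list was made, since the members share arrays and vary together.

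**Figure D3:**
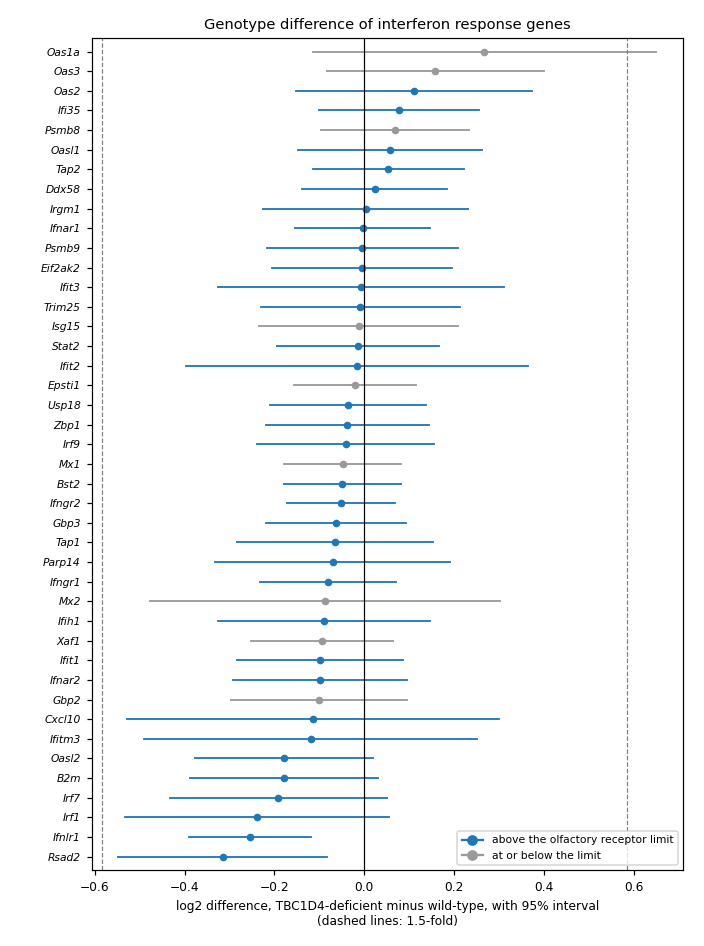
Log2 difference (TBC1D4-deficient minus wild-type, points) with its 95% confidence interval from limma (bars) for each of the 42 members, from highest to lowest. Grey marks members at or below the olfactory receptor limit, and the dashed lines mark 1.5-fold; the intervals of Ifnlr1 and Rsad2 leave out 0 before adjustment, and only that of Oas1a crosses a dashed line.

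By role, the split was uneven. All 5 receptors and all 4 transcription factors lay below 0 on the deposited scale (4 of 5 and 3 of 4 with median centring), and so did 10 of 11 antiviral effectors (8 of 11 with median centring) and 4 of 5 sensors (2 of 5 with median centring). Within the arrays numbered 5 to 8 these counts were 2 of 5 receptors, 3 of 4 transcription factors, 7 of 11 antiviral effectors and 2 of 5 sensors, and within 9 to 12 they were 5 of 5, 4 of 4, 8 of 11 and 3 of 5. The OAS family ran the other way, with 4 of 5 above 0 on both scales (3 of 5 in arrays 5 to 8 and 2 of 5 in arrays 9 to 12). Oas1a and Oas3, among those 4, lay below the background limit. Antigen processing genes (3 below and 2 above 0, or 2 below and 3 above with median centring) and GTPases (2 below, 1 above) were divided.

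Ifnlr1 had the smallest unadjusted p of the set. Its level was 3.29, 3.24, 3.24 and 3.22 in TBC1D4-deficient replicates 1 to 4, against 3.47, 3.58, 3.56 and 3.40 in wild-type replicates 1 to 4. Every TBC1D4-deficient array lay below every wild-type array. The log2 difference was -0.25 (95% interval -0.39 to -0.12, limma adjusted p = 0.9999). An exact 2-sided permutation test gave p = 0.0286, the smallest that 4 arrays against 4 allow. The lack of overlap already fixes that value, so the test adds nothing to it. Ifnlr1 was the only 1 of 42 members without overlap between groups (2.38%). The share of all probe sets was 1.85% in either direction, 0.907% in the lower and 0.942% in the higher direction. Within the arrays numbered 5 to 8 and 9 to 12 the difference was -0.34 and -0.17.

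Rsad2, which encodes viperin, an enzyme that makes a chain-terminating nucleotide against viral polymerases, read 3.34, 3.56, 3.42 and 3.40 in TBC1D4-deficient arrays and 3.86, 3.44, 3.94 and 3.74 in wild-type arrays. Wild-type replicates 1, 3 and 4 stood above all TBC1D4-deficient arrays, and wild-type replicate 2 lay among them. The log2 difference was -0.32 (-0.55 to -0.08; limma adjusted p = 0.9999), and the exact permutation p was 0.0571. With the range of the second description number as a covariate, which is split unevenly between the genotypes, the difference was -0.17.

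Irf1 read 3.96, 3.69, 3.93 and 3.94 in TBC1D4-deficient arrays and 4.46, 4.20, 3.76 and 4.06 in wild-type arrays. The groups overlapped through wild-type replicate 3, and the difference was -0.24 (-0.53 to 0.06), with -0.04 in arrays 5 to 8 and -0.44 in arrays 9 to 12. A dimmer Irf1 probe set, with a mean level of 2.70, had a difference of -0.07 (-0.28 to 0.13). Irf7 read 2.93, 3.09, 3.10 and 2.90 in TBC1D4-deficient arrays and 3.38, 3.36, 2.90 and 3.14 in wild-type arrays, again overlapping (difference -0.19, -0.43 to 0.05; -0.13 within 5 to 8 and -0.25 within 9 to 12).

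For both factors, wild-type replicates 1 and 2 were the highest of the 8 arrays. Stat2 and Irf9, which form the type I complex, had differences of -0.01 (-0.19 to 0.17) and -0.04 (-0.24 to 0.16). Oasl2, an OAS-like protein with ubiquitin-like domains, read 3.53, 3.23, 3.57 and 3.46 in TBC1D4-deficient arrays, against 3.67, 3.50, 3.58 and 3.76 in wild-type arrays. Its groups overlapped, and its difference was -0.18 (-0.38 to 0.02), with -0.02 within 5 to 8 and -0.33 within 9 to 12.

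B2m read 8.36, 8.30, 8.21 and 8.35 in TBC1D4-deficient arrays, against 8.39, 8.30, 8.51 and 8.75 in wild-type arrays. The difference of -0.18 (-0.39 to 0.03) rested largely on wild-type replicate 4 and was -0.09 without it. Ifitm3 showed the same array at the top: it read 6.46, 5.82, 6.33 and 6.29 in TBC1D4-deficient arrays and 6.27, 6.16, 6.15 and 6.80 in wild-type arrays (difference -0.12, -0.49 to 0.25). The groups overlapped for both genes.

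The type I and gamma receptors had differences close to 0. Ifnar1 read 6.05, 5.90, 6.09 and 6.13 in TBC1D4-deficient arrays and 5.98, 6.08, 6.03 and 6.11 in wild-type arrays, a difference of -0.0035 (-0.15 to 0.15). Ifnar2 read 5.60, 5.73, 5.72 and 5.79 in TBC1D4-deficient arrays and 5.74, 5.63, 5.83 and 6.03 in wild-type arrays, a difference of -0.10 (-0.29 to 0.10). Overlap was complete for Ifnar1 and partial for Ifnar2. Ifngr1 had a difference of -0.08 (-0.23 to 0.07), with 6.36, 6.43, 6.56 and 6.49 in TBC1D4-deficient arrays and 6.63, 6.57, 6.45 and 6.50 in wild-type arrays.

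Ifngr2 read 6.76, 6.75, 6.75 and 6.83 in TBC1D4-deficient arrays and 6.81, 6.79, 6.85 and 6.85 in wild-type arrays, a difference of -0.05 (-0.17 to 0.07). Only TBC1D4-deficient replicate 4 overlapped the wild-type arrays. Among the bright sensors and effectors, differences were 0.02 (-0.14 to 0.18) for Ddx58, -0.0048 (-0.20 to 0.20) for Eif2ak2, 0.0031 (-0.23 to 0.23) for Irgm1 and -0.01 (-0.33 to 0.31) for Ifit3. Ddx58 read 5.99, 5.82, 5.75 and 5.86 in TBC1D4-deficient arrays, against 5.86, 5.70, 5.88 and 5.89 in wild-type arrays.

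The genotypes overlapped in all 4 of these genes. Eif2ak2 read 5.72, 5.34, 5.48 and 5.52 in TBC1D4-deficient arrays and 5.66, 5.39, 5.51 and 5.52 in wild-type arrays. Irgm1 read 5.91, 5.61, 5.74 and 5.97 in TBC1D4-deficient arrays and 5.77, 5.67, 5.74 and 6.04 in wild-type arrays. Ifit3 read 5.61, 5.23, 5.16 and 4.98 in TBC1D4-deficient arrays and 5.49, 4.94, 5.31 and 5.27 in wild-type arrays.

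Irf9 read 5.38, 5.55, 5.31 and 5.19 in TBC1D4-deficient arrays and 5.39, 5.30, 5.33 and 5.56 in wild-type arrays, and the groups overlapped. Members with the smallest p at or below the background limit were Oas1a, Oas3 and Xaf1. Oas1a read 2.04, 1.92, 2.20 and 2.66 in TBC1D4-deficient arrays and 1.88, 2.13, 1.57 and 2.16 in wild-type arrays (difference 0.27, -0.11 to 0.65; 0.58 within 5 to 8 and -0.04 within 9 to 12). Oas3 read 2.36, 2.40, 2.53 and 2.79 in TBC1D4-deficient arrays and 2.28, 2.35, 2.58 and 2.23 in wild-type arrays (0.16, -0.08 to 0.40). In both, TBC1D4-deficient replicate 4 was the highest array and the groups overlapped. Xaf1 read 2.03, 2.11, 2.15 and 2.14 in TBC1D4-deficient arrays and 2.25, 2.03, 2.30 and 2.23 in wild-type arrays (-0.09, -0.25 to 0.06). These levels cannot be told from background.

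**Figure D4:**
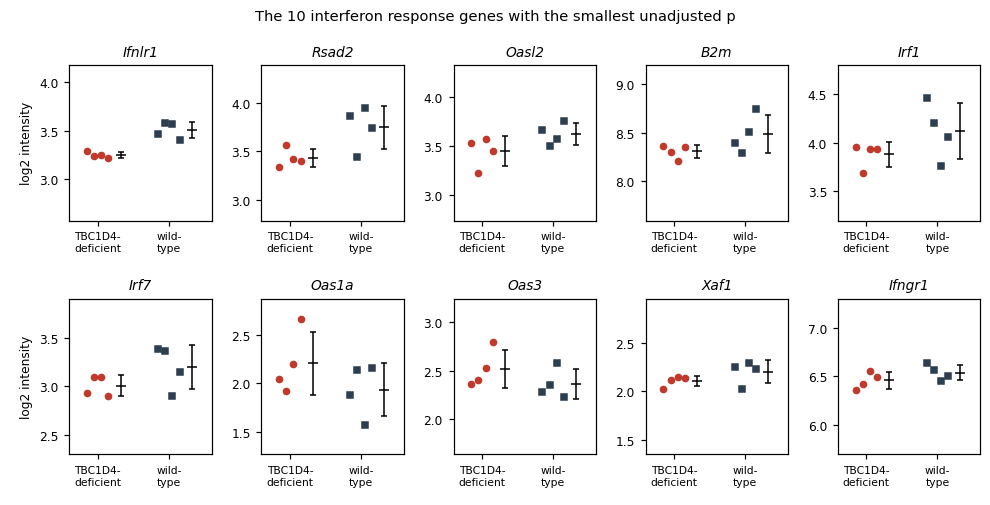
Log2 intensity on each array for the 10 members with the smallest unadjusted limma p, TBC1D4-deficient (red circles) left of wild-type (dark squares), with the mean and SD of 4 arrays as a bar to the right of each group. Every panel spans the same height in log2 units; only in Ifnlr1 do the groups not overlap.

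The remaining members had differences from -0.11 in Cxcl10, whose TBC1D4-deficient arrays spanned 3.21 to 4.14, to 0.11 in Oas2. Cxcl10 was also the member with the largest spread among TBC1D4-deficient arrays (SD 0.43). The difference between genotypes was compared between the number sets with an interaction term. It was called for 0 of 42 members and 0% of all probe sets (limma adjusted p), and at an unadjusted p below 0.05 for 1 member, Tap1 (2.38% of members, against 4.51% of all probe sets). Tap1 stood at 0.13 within 5 to 8 and at -0.26 within 9 to 12.

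Members were also averaged within each array. Centred on each gene's mean over the 8 arrays, the 33 members above the limit averaged 0.02, -0.09, -0.03 and -0.04 in TBC1D4-deficient replicates 1 to 4, against 0.07, -0.03, 0.01 and 0.08 in wild-type replicates 1 to 4. The genotypes overlapped in this mean. For the 5 receptors, on the deposited scale, it was -0.08, -0.09, -0.02 and -0.0025 in TBC1D4-deficient arrays, against 0.03, 0.03, 0.05 and 0.08 in wild-type arrays. That lack of overlap rested on Ifnlr1: the other 4 receptors averaged -0.08 to 0.04 in TBC1D4-deficient arrays and -0.0076 to 0.10 in wild-type arrays, which overlap. These means are descriptions, with no test.

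Markers of other cell types were averaged beside them. Endothelial markers (13 genes), centred in the same way, averaged -0.38 to 0.0013 in TBC1D4-deficient arrays and 0.03 to 0.21 in wild-type arrays, with all 13 genes below 0 in the difference. Among them, Emcn had a mean level of 5.27 and Ehd3 of 4.91. Their summed intensity was 151.8 to 199.4 in TBC1D4-deficient arrays and 207.2 to 229.8 in wild-type arrays. Macrophage and dendritic cell markers (15 genes) averaged 0.01 to 0.09 in TBC1D4-deficient arrays and -0.14 to 0.0056 in wild-type arrays, with overlapping summed intensities of 107.5 to 124.5 in TBC1D4-deficient arrays and 96.1 to 113.3 in wild-type arrays. Of these 15 genes, 9 lay below the limit, namely Ptprc, Adgre1, Itgam, Itgax, Lyz2, C1qc, Tyrobp, Laptm5 and Cd14. The 6 above it, Csf1r (mean level 4.67) and Fcer1g (3.48) among them, averaged -0.01 to 0.17 in TBC1D4-deficient arrays and -0.25 to 0.07 in wild-type arrays, which overlap.

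Endothelial and immune cells express interferon response genes as well. Their part in the values above was not tested, nor was that of other nephron segments. The 15 proximal tubule markers spanned -1.06 to 0.31 in TBC1D4-deficient arrays and -0.49 to 0.73 in wild-type arrays and overlapped. All 15 were below 0 in the difference, as were all 6 connecting tubule and principal cell markers. So were 6 of 7 intercalated cell, 4 of 6 thick ascending limb and 3 of 9 DCT markers. Connecting tubule and principal cell markers summed to 1897.2 to 2043.0 in TBC1D4-deficient and 2055.2 to 2093.4 in wild-type arrays, without overlap, while their centred means overlapped. The 10 lymphocyte markers, of which only Cd79b (2.75) and Cd3e (2.66) lay above the limit, spanned -0.10 to 0.09 in TBC1D4-deficient arrays and -0.07 to 0.03 in wild-type arrays, also overlapping.

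**Figure D5:**
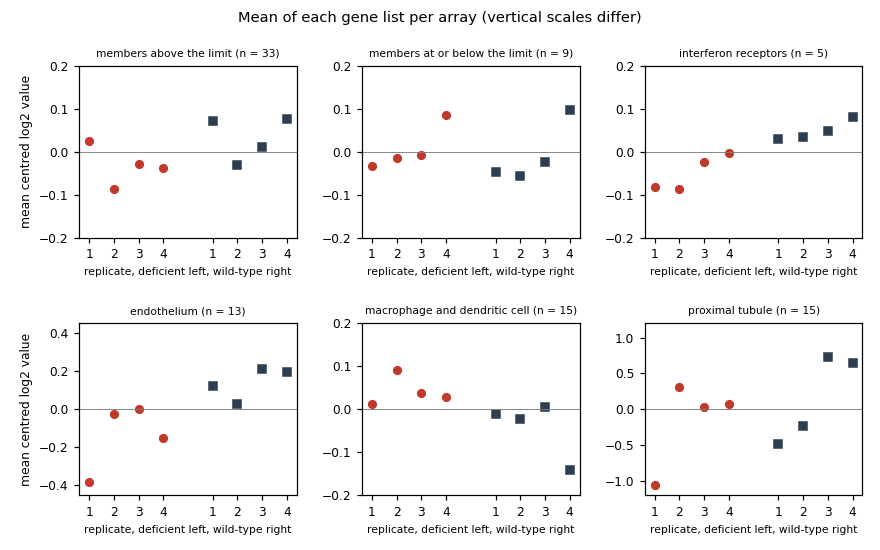
Mean of each gene list per array after centring each gene on its mean over the 8 arrays (vertical axis, log2 units, scales differ between panels), TBC1D4-deficient replicates left and wild-type replicates right. The endothelial means of TBC1D4-deficient arrays lie below those of wild-type arrays. The receptor means do so only with Ifnlr1 included, the macrophage and dendritic cell means lie above them only with the 9 markers below the limit included, and the other 3 panels overlap.

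Other genes of the interferon pathway were examined from a second list. Of 88 listed, 76 were measured and 56 lay above the background limit. Their differences were evenly split, with 37 above and 39 below 0 and a median of -0.0036, and 0 passed in either direction (limma, smallest adjusted p = 0.9999). At an unadjusted p below 0.05 there were 2, Jak1 and Psme1, both lower, which is 2.63% of the 76 and close to the 2.9% of all probe sets.

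Jak1, a kinase that signals for all 3 receptor types, read 7.08, 7.13, 6.98 and 7.11 in TBC1D4-deficient arrays, against 7.26, 7.24, 7.16 and 7.18 in wild-type arrays (difference -0.14, -0.27 to -0.0036). Psme1, a proteasome activator subunit, read 7.29, 7.43, 7.43 and 7.44 in TBC1D4-deficient arrays and 7.62, 7.59, 7.50 and 7.46 in wild-type arrays (-0.15, -0.29 to -0.0021). In both genes every TBC1D4-deficient array lay below every wild-type array, and Trim30a was the only other of the 76 without overlap. These 3 are 3.95% of the 76, beside 1.85% of all probe sets in either direction and 0.907% in the lower direction. Psme2, which partners Psme1 in the activator, had a difference of opposite sign, 0.17 (-0.05 to 0.39).

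The other genes with the smallest p were Cmpk2, a mitochondrial nucleotide kinase (-0.17, -0.38 to 0.03), Trim30a (-0.16, at a level below the limit) and Ifi27 (0.16, -0.05 to 0.36). Mean levels of 6 further genes, taken by the rule for high intensity, were those of Ly6e, an interferon-inducible surface protein (9.52), Mavs, the mitochondrial adaptor of RIG-I and MDA5 (8.81), Nampt (8.75), Ifitm2 (8.63), Stat3 (7.90) and Tapbp, the class I chaperone tapasin (7.55). Their differences lay between -0.04 in Ifitm2 and 0.06 in Nampt. All 20 nearest named probe sets of Ifitm2 are annotated to chromosome 11, while the gene is on chromosome 7, so the locus read there is unsettled too. Of the interferon genes themselves, picked after their values were seen, Ifnb1, Ifnk and Ifne lay below the limit at 1.92, 2.03 and 1.92. Ifng stood at 2.75, above the array's own limit in 7 arrays, and Ifnl2 at 4.38. The brightest olfactory receptor probe set stood at 4.42, and whether the Ifng and Ifnl2 readings reflect transcripts was not tested.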

How the data were processed

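The arrays were 1-colour Affymetrix arrays, hybridised with cDNA made from 100 ng of RNA, 1 per sample. The authors deposited 1 linear intensity per probe set and sample, 28371 in all, made with Affymetrix Power Tools per the submitters' processing notes; version, summarisation and normalization are not named in those notes. Array medians were 8.41 to 9.03 and correlations between arrays 0.993 to 0.997, so the columns were already on a common scale, which can mask a shift of most genes at once. No detection call was used, and dim probe sets understate fold changes.

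The deposited intensities were taken to log2 without an offset, filter or further normalization. The limma package (version 3.58.1, under R version 4.3.3) gave the 2-sided genotype test, with lmFit and eBayes, over the 23039 probe sets with a gene symbol in the platform annotation, with Benjamini-Hochberg adjustment at 0.05. Of all probe sets, 21158 had 1 symbol, 1881 had several and 5332 had none, and no gene was named from a probe set with several. Differences are TBC1D4-deficient minus wild-type, with 95% intervals from limma. The number of arrays, 4 per genotype, limits the precision.

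The members and lists were chosen with earlier results of these data known. Every member may be named; values per array are given for the 10 members with the smallest p, the 10 brightest and the 5 receptors, and Ifit3 was added after its values were seen. For other pathway genes the 6 with the smallest p and the 6 brightest are named, and for markers the brightest 2 of a list discussed and defining genes below the limit, with Pvalb added for the transgene. Promoter windows came from RefSeq (GRCm38.p6). Alternatives were other background limits, normalizations, filters, sets of rows, eBayes settings, array weights, covariates from the description numbers, an offset of 16, the replicate block and leaving out each array in turn. Array means of the receptors without Ifnlr1 and of the macrophage and dendritic cell markers above the limit were added after seeing the data.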

Additional observations from a re-analysis of the deposited data

Results flagged for a closer look

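A value was singled out when the highest or lowest of 4 arrays of a genotype stood apart from the other 3 by more than Dixon's 95% critical value for the gap relative to the range. This held in 10 of 84 groups examined (11.9%; 42 genes in 2 genotypes), against 5.47% of such groups over all 18782 genes, and chance gives about 1 in 20. Whether the members differ from other genes in this was not tested. In the TBC1D4-deficient arrays, Ifngr2 read 6.83 in replicate 4, against 6.75 to 6.76 in the others. Irf1 read 3.69 in TBC1D4-deficient replicate 2, against 3.93 to 3.96. Epsti1, below the background limit, read 2.15 in the same array, against 2.06 to 2.08.

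In the wild-type arrays, Stat2 read 4.74 in replicate 1, against 4.45 to 4.48 in the others, and Psmb8, below the background limit, read 2.19 there, against 2.38 to 2.39. In wild-type replicate 2, Ddx58 was low at 5.70, against 5.86 to 5.89, and Zbp1 was high at 2.67, against 2.53 to 2.54. Ifit1 was low in wild-type replicate 3 at 2.90, against 3.17 to 3.20. In wild-type replicate 4, Tap2 was low at 4.67, against 4.90 to 4.94, and the probe set annotated to Isg15 was high at 2.45, against 2.08 to 2.14. The cause of these gaps was not tested.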

How the results depend on the processing

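No member was called under any of the 24 alternatives to the genotype fit (limma, smallest adjusted p = 0.9972). Among all probe sets, 1 was called under each of these alternatives. At an unadjusted p below 0.05 there were 1 to 5 members. The 5 came without wild-type replicate 2 and without wild-type replicate 3, where 747 and 655 of 23039 probe sets passed. The 1 came with the range of the second description number as a covariate, where 692 of 23039 passed. The median difference of the members was -0.081 within arrays 9 to 12, against -0.045 over all arrays, and -0.057 to -0.024 when each array was left out in turn. The members above background were 16 with the highest olfactory receptor probe set as the limit and 26 with the 99th percentile. They were 37 with the 90th percentile and 37 with vomeronasal receptors. The dimmest of the 16, 26 and 37 members were Stat2, Ifnlr1 and Mx2, which stood above 58.5%, 48.1% and 31.2% of all genes. Leaving out an array gave 32 to 33 members. Direction turned for Oas1a within arrays 9 to 12 (-0.04, against 0.27) and for Ifngr1 within arrays 5 to 8 (0.02, against -0.08); the cause was not tested. The other 225 of 227 values of 10 named members kept their direction and side of the threshold.

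With the replicate number as a block, 1 probe set was called over all, 0 members were called and the members' median was -0.045, so the block changed no call. Deviations of same-numbered arrays from their group means correlated at 0.402, -0.189, 0.0391 and 0.0117 for numbers 1 to 4. The arrays numbered 1 thus deviated partly together. The labels do not state that the numbers pair samples, and these correlations cannot settle it.

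With each array left out in turn, the difference ran from -0.29 to -0.23 in Ifnlr1, -0.42 to -0.25 in Rsad2, -0.22 to -0.11 in Oasl2, -0.24 to -0.09 in B2m, -0.36 to -0.13 in Irf1, -0.29 to -0.13 in Irf7, 0.12 to 0.36 in Oas1a, 0.07 to 0.23 in Oas3, -0.15 to -0.06 in Xaf1 and -0.11 to -0.05 in Ifngr1. The levels of 9 members lay at or below the background limit, and Oas2, Zbp1, Parp14 and Gbp3 stood just above it. Only 28 members exceeded the limit of every array. Dim signal therefore restricts more than those 9. An offset of 16 took the differences of Ifnlr1 and Rsad2 to -0.10 and -0.14.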

Other observations

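Members reached their extremes unevenly over the arrays. TBC1D4-deficient replicate 2 held the lowest of the 8 values for 11 of 42 members and the highest for 0. Wild-type replicate 4 held the highest value for 12 of 42 and the lowest for 4. These counts are descriptions of single arrays, and members are not independent of each other.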
